A study of Mus musculus with 6 samples.

Results

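The mRNAs of 10 inflammatory cytokines and chemokines, *Il1a*, *Il1b*, *Il18*, *Tnf*, *Cxcl16*, *Ccl2*, *Ccl12*, *Ccl3*, *Ccl4* and *Ccl9*, were followed in CD11b+ cells of the mouse brain. They were chosen by gene symbol, and all 10 were found among the 19225 genes with deposited values. Cells came from male mice without stress exposure, 3 labelled Cnr1+/+ (strain C57BL6/J, genotype wt/wt) and 3 labelled Cnr1-/- (strain Cnr1 tm1Zim, genotype d/d), all given as 3 months old, whereas the methods of the study name a younger age. The knockout is constitutive, so that every cell of the body lacks a working *Cnr1*, the gene of the cannabinoid receptor CB1, and not microglia alone. Brains were perfused with buffered saline, freed of the cerebellum, broken up mechanically, cleared of myelin with Percoll and enriched with beads against CD11b, a surface protein that monocytes, neutrophils and other macrophages also carry. Each mouse gave 1 library, read from the 3′ ends of its mRNAs. *Il1b* mRNA was 3.25 times as high on average in the libraries labelled Cnr1-/- as in those labelled Cnr1+/+, without overlap but with an adjusted p of 0.473 (limma), and none of the 10 genes passed a threshold adjusted for all genes.

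Cytokines and chemokines are secreted proteins by which immune cells call and activate each other. Microglia, the resident macrophages of the brain, hold most of these genes at a low level at rest and switch several of them on within a short time through NF-κB and AP-1 when they sense damage or microbial products. For IL-1β and IL-18 the mRNA is only a first step, because both are made as inactive precursors that caspase-1 cuts inside the inflammasome, and TNF and CXCL16 are held in the membrane until ADAM proteases release them. Levels of mRNA therefore say nothing of how much active protein was released.

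The targeted gene was looked at first. *Cnr1* was listed at 0 in all 3 libraries labelled Cnr1+/+ and with 13, 13 and 15 reads in the libraries labelled Cnr1-/- (1.41, 1.21 and 1.79 cpm, counts scaled to the size of the library). These few reads go against the labels. The methods describe PCR genotyping of the mice and a neomycin cassette in the coding region, so that reads may come from a 3′ end left in place, and where in the gene the reads lie cannot be read from the values. They thus settle neither the genotype nor whether the labels of the groups were exchanged, which was not tested. Groups are named by the labels of the libraries throughout, and every direction given, that of *Il1b* included, would turn if the labels were exchanged. Effective library sizes lay between 7708798 and 10723815 reads, and a listed 0 means that 0 reads were counted, which allows an expected level of up to 3 reads (0.280 to 0.389 cpm). All 14 microglia markers were listed, with a summed level of 18062 to 20848 cpm. The library labelled Cnr1-/- replicate 2 stood apart by blood cell genes, since the sum of its 12 neutrophil markers was 4201 cpm (other 5 libraries 311 to 579 cpm) and that of its 7 erythrocyte markers 2346 cpm (142 to 243 cpm). For 8 monocyte markers the sum was 116 cpm (32.9 to 39.9 cpm), though not each of the 8 was raised in that library.

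The genes lie in few places of the mm10 genome. *Il1a* (chr2:129299610-129309972) and *Il1b* (chr2:129364570-129371139) are neighbours on the minus strand, 54597 bases apart. On chromosome 11, *Ccl2* (chr11:82035571-82037453) and *Ccl12* (chr11:82101845-82103400) lie together on the plus strand, and *Ccl9* (chr11:83572919-83578636, minus strand), *Ccl3* (chr11:83647844-83649355, minus strand) and *Ccl4* (chr11:83662584-83664683, plus strand) form a second group of 91.8 kb. *Cxcl16* (chr11:70453983-70459984, minus strand) is elsewhere on chromosome 11, *Tnf* is at chr17:35199381-35202007 on the minus strand and *Il18* at chr9:50554827-50581840 on the plus strand. *Il1b* is overlapped on the opposite strand by *Il1bos*, *Ccl2* by *Gm17268* and *Il1a* by *Gm14023*, of which the last was listed at 0 to 1.82 cpm. The sources used here do not give whether the counting used strand, so reads in such overlaps could not be assigned with certainty.

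Stretches of 120 bases before the transcription start are shown for 4 genes to set the start region of *Il1b*, the gene with the largest difference relative to its error, beside those of its neighbour *Il1a*, of *Tnf* and of *Ccl3*. The sequences are those of RefSeq (GRCm38.p6), in which the start regions of 7 of the 10 genes were matched. All 4 are on the minus strand and read 5′ to 3′ towards the start, and capitals mark the motifs found. These are the TATA box (TATAAA), the AP-1 motif (TGANTCA) and the core of PU.1 sites (GAGGAA), each searched on both strands, so that TTCCTC is the PU.1 core on the other strand.
Il1b (chr2:129371140-129371259): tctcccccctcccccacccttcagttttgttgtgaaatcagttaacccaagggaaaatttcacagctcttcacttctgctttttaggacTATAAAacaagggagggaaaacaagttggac
Il1a (chr2:129309973-129310092): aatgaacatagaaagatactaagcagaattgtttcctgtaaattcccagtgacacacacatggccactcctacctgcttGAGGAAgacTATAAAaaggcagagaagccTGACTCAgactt
Tnf (chr17:35202008-35202127): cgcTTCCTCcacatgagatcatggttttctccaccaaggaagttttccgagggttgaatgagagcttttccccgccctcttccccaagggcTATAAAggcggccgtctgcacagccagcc
Ccl3 (chr11:83649379-83649498): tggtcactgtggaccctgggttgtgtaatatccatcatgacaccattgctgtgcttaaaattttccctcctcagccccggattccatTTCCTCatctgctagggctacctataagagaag
*Il1b*, *Il1a* and *Tnf* each hold a TATA box that begins 31, 32 and 29 bases before the start, and *Ccl12* one that begins 31 bases before it. Within 250 bases before the start, a TATA box on either strand was found in 6 of the 7 genes, against 12.4% of 32851 promoters, and the PU.1 core in 4 of the 7, against 23.3%. PU.1 is a transcription factor that macrophages need. An AP-1 motif was found in *Il1a* and *Ccl9* (6.75% of promoters). A loose NF-κB-like motif with a free middle was found in *Tnf* and *Ccl9* and is in 45.8% of all promoters. The CRE motif (TGACGTCA) and a motif like the glucocorticoid response element, which are in 1.55% and 0.387% of promoters, were found in 0 of the 7. *Ccl9* also holds a TATA box 92 bases before the start and *Il18* one 175 bases before it on the other strand. A match of letters shows no bound factor.

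The other end of the transcripts was searched for the word TATTTAT, which is typical of the AU-rich elements by which the ZFP36 proteins shorten the life of cytokine mRNA. In the GENCODE vM21 annotation, the 3′ untranslated region of *Tnf* held 8 copies, and those of *Il1a* and *Il1b* held 3 each, whereas 3.80% of 13831 listed genes held 3 or more. *Ccl3*, *Ccl4* and *Ccl12* held 1 copy each and *Ccl2*, *Ccl9*, *Cxcl16* and *Il18* none, against 28.4% of listed genes with at least 1.

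Levels are given in cpm as deposited, which for 3′ end libraries are not divided by gene length because a transcript gives about 1 fragment. Over the 6 libraries the mean level followed the order *Ccl9* (35.8 cpm), *Il18* (28.6 cpm), *Ccl12* (21.7 cpm), *Cxcl16* (17.9 cpm), *Ccl3* (9.01 cpm), *Il1a* (8.498 cpm), *Ccl4* (5.68 cpm), *Il1b* (4.21 cpm), *Ccl2* (1.67 cpm) and *Tnf* (1.17 cpm). The ranges of every pair of neighbours in this order overlapped. The 10 genes summed to 125, 116 and 140 cpm in the libraries labelled Cnr1+/+ and to 126, 155 and 144 cpm in those labelled Cnr1-/-. Replicate 2 labelled Cnr1-/- was the highest library for 5 of the 10 genes, replicate 3 labelled Cnr1-/- for 3 and replicate 3 labelled Cnr1+/+ for 2.

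The question put to each gene was whether its mRNA differed between the genotypes at rest. With limma on log2 (cpm + 0.1), 4 of the 10 genes had a mean of at least 10 cpm and entered the fit of 6659 genes, and 0 of these 4 had a nominal p under 0.05, against 6.02% of all genes tested. None of the 4 passed the stricter threshold of the study (adjusted p below 0.1 and a fold above 1.5), which 0.0901% of the tested genes passed, and the groups overlapped for each of them. The other 6 genes were read from the same fit without the filter, which covers all 19225 listed genes. In that fit *Il1b* was higher in the libraries labelled Cnr1-/- at a nominal p under 0.05, and it was the only one of the 10 genes, against 5.17% of all genes in either direction and 3.68% in this one. None of the 10 passed the stricter threshold, which 0.0728% of all genes passed there. In bulk samples such as these, fewer cells of a type and less RNA per cell cannot be told apart.

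**Figure D1:**
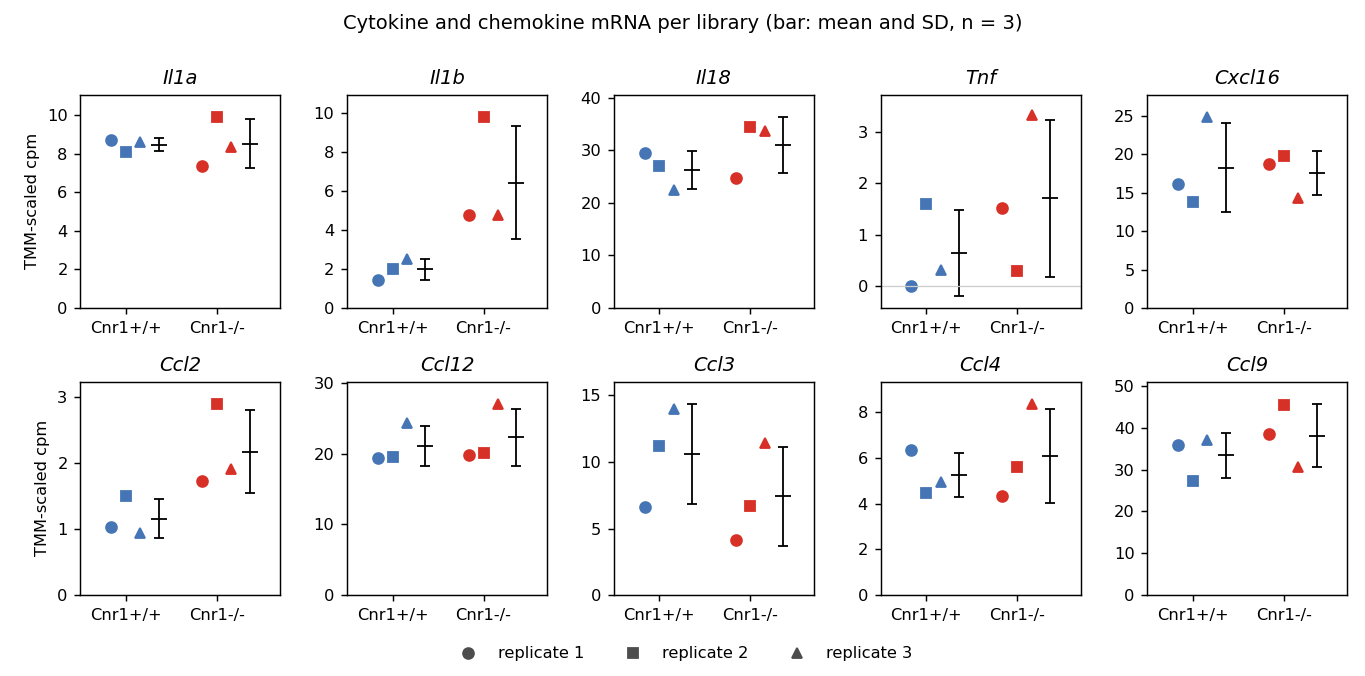
The deposited TMM-scaled cpm of each of the 10 genes is plotted for every library, with circles, squares and triangles for replicates 1, 2 and 3, blue for Cnr1+/+ and red for Cnr1-/-, and a black bar for the mean and SD of 3 libraries. The red points lie above all blue points for *Il1b* and *Ccl2*, and the groups overlap for the other 8 genes.

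IL-1 family genes come first. *Il1b* encodes IL-1β, the secreted cytokine that drives fever and the response of endothelium and glia. It was listed at 1.43, 2.00 and 2.52 cpm in replicates 1, 2 and 3 labelled Cnr1+/+ and at 4.76, 9.79 and 4.77 cpm in those labelled Cnr1-/-, the order kept for all genes below. All 3 libraries labelled Cnr1-/- were above all 3 labelled Cnr1+/+, and replicate 2 was the highest by far. These values rest on 11, 20 and 24 reads against 44, 105 and 40 reads. The highest library of one group and the lowest of the other were 2.52 cpm (exact Poisson 95% interval 1.62 to 3.76) and 4.76 cpm (3.46 to 6.39), so that their intervals, which cover counting error only, overlapped slightly. Means were 1.98 ± 0.549 cpm and 6.44 ± 2.90 cpm (SD, n = 3), a ratio of 3.25. The log2 fold change was 1.60 (SE 0.479, 95% interval 0.63 to 2.57, adjusted p = 0.473, limma). The unadjusted p of limma, 0.00174, was rank 68 of 19225 genes, and a two-sided exact permutation test over 3 and 3 libraries gave p = 0.1, the smallest it can give. The groups of *Il1b* did not overlap, as for 10.1% of all listed genes in either direction and 6.58% in this one.

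Leaving out replicate 2 labelled Cnr1-/-, the library rich in neutrophil and erythrocyte mRNA, lowered the ratio of *Il1b* to 2.40 and its log2 fold change to 1.26 (SE 0.529, adjusted p = 0.998, limma). The groups still did not overlap without it. The remaining libraries labelled Cnr1-/- held neutrophil markers at 579 and 317 cpm in sum and those labelled Cnr1+/+ at 541, 311 and 331 cpm, and *Il1b* stood at 4.76 and 4.77 cpm against 1.43, 2.00 and 2.52 cpm. All 12 neutrophil markers were listed, and none was at 0 in all libraries. Without the filter, 9 of the 12 were higher in the libraries labelled Cnr1-/- at a nominal p under 0.05 and 0 lower. The share of all genes was 5.17% in either direction. The high values were those of replicate 2 labelled Cnr1-/-, with a sum of 4201 cpm against at most 579 cpm in the other libraries. The count therefore does not show a rise in all 3 libraries of that label. The part of neutrophils in the *Il1b* values was not tested. *Il1b* had a nominal p under 0.05 in all 14 fits without the filter, in which the pseudocount, the scaling, the trend, the block and the libraries were varied, with log2 fold changes of 1.26 to 1.79. Its adjusted p lay between 0.459 and 0.998.

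*Il1a* encodes IL-1α, which uses the same receptor but is active without cleavage. It was listed at 8.69, 8.08 and 8.62 cpm in the libraries labelled Cnr1+/+ and at 7.36, 9.88 and 8.35 cpm in those labelled Cnr1-/-. The libraries labelled Cnr1+/+ lay close together inside the range of the others. *Il1a* had a log2 fold change of 0.00 (95% interval -0.59 to 0.60, adjusted p = 1.00, limma), with means of 8.47 ± 0.335 and 8.53 ± 1.27 cpm (SD, n = 3). Counting alone would give a coefficient of variation of 11.4% at these levels, and the libraries labelled Cnr1+/+ gave 3.95%.

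The ratio of *Il1b* to *Il1a* was 0.164, 0.247 and 0.293 in the libraries labelled Cnr1+/+ and 0.647, 0.991 and 0.571 in those labelled Cnr1-/-. *Il1a* thus exceeded *Il1b* in every library, by least in replicate 2 labelled Cnr1-/-, and the ratios of the groups did not overlap. Because *Il1a* hardly differed between the groups, this ratio restates the *Il1b* values and is no separate result. Over the 6 libraries, *Il1a* and *Il1b* had a Pearson r of 0.32 (exact permutation p = 0.558) and a Spearman rho of 0.14 (exact permutation p = 0.803), and r was -0.27 without the 2 libraries farthest from the median of *Il1a*. With adjustment over the 4 pairs of neighbours examined, both p were at 0.796 and 0.803 (exact permutation test).

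*Il18* encodes IL-18, the precursor of an inducer of interferon-γ that macrophages hold in store without stimulation. It was listed at 29.4, 27.0 and 22.4 cpm against 24.8, 34.3 and 33.6 cpm. Replicates 2 and 3 labelled Cnr1-/- were above all libraries labelled Cnr1+/+, and replicate 1 lay among them. *Il18* had a log2 fold change of 0.23 (SE 0.188, 95% interval -0.16 to 0.61, adjusted p = 0.900, limma). *Bco2* and *Tex12* overlap *Il18* on the other strand, and *Bco2* was listed at 13.3 to 17.6 cpm.

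*Tnf* encodes TNF, the cytokine that activates NF-κB in most cells of the brain. It was the least abundant of the 10, at 0, 1.60 and 0.316 cpm against 1.52, 0.280 and 3.34 cpm, or 0, 16 and 3 reads against 14, 3 and 28 reads. The 3 libraries with at most 3 reads and the 3 above them were spread over both labels, and the groups overlapped. Its log2 fold change of 1.63 (95% interval -0.46 to 3.73, adjusted p = 0.957, limma) depends on the pseudocount and became 0.68 with 1 and 4.93 with 0.0001. The nominal p fell under 0.05 without replicate 2 labelled Cnr1+/+ (log2 fold change 2.65), but not without replicate 1 of that label (0.61). The coefficient of variation of *Tnf* was 133% and 89.9% in the groups, against 39.7% and 25.8% from counting alone, so that the libraries of a group differed by more than counting error.

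*Cxcl16* encodes a membrane-bound chemokine and scavenger receptor that, once shed, attracts cells with CXCR6. It was listed at 16.2, 13.8 and 24.8 cpm against 18.7, 19.8 and 14.3 cpm. The highest and the lowest library both carried the label Cnr1+/+. *Cxcl16* had a log2 fold change of -0.02 (95% interval -0.51 to 0.46, adjusted p = 0.995, limma). Among the 6659 genes tested, its spread within groups was at percentile 85.6, whereas those of *Ccl12*, *Il18* and *Ccl9* were at percentiles 51.7, 56.6 and 67.1. Its overlapping neighbour on the other strand, *Zmynd15*, was listed at 0.835 to 2.72 cpm.

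Among the chemokines that bind CCR2 and draw monocytes, *Ccl2* was scarce and *Ccl12* abundant. *Ccl2* was listed at 1.04, 1.497 and 0.947 cpm against 1.73, 2.89 and 1.91 cpm, which are 8, 15 and 9 reads against 16, 31 and 16 reads. All libraries labelled Cnr1-/- were above all labelled Cnr1+/+, with replicate 2 again the highest. The ratio of means was 1.88 and the log2 fold change 0.84 (SE 0.682, 95% interval -0.53 to 2.22, adjusted p = 0.957, limma). The exact permutation test gave p = 0.1, the smallest it can give. Of the 14 fits without the filter, *Ccl2* had a nominal p under 0.05 in 1, the limma fit without a trend of the variance. Without replicate 2 labelled Cnr1-/- the ratio was 1.57 and the groups did not overlap. *Ccl2* and *Il1b* made up the 2 of 10 genes with groups that did not overlap, against 10.1% of all listed genes.

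*Ccl12*, which mice have beside *Ccl2*, was listed at 19.3, 19.5 and 24.3 cpm against 19.8, 20.1 and 27.0 cpm. Replicate 3 was the highest of its group under both labels, and the groups overlapped. *Ccl12* had a log2 fold change of 0.08 (95% interval -0.34 to 0.50, adjusted p = 0.977, limma), and its sign turned when totals were rescaled without mitochondrially encoded genes (-0.02). *Ccl2* and *Ccl12* had a Pearson r of -0.06 (exact permutation p = 0.956) and a Spearman rho of 0.31 (exact permutation p = 0.564) over the 6 libraries, and an r of 0.64 without the 2 libraries farthest from the median of *Ccl2*.

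*Ccl3* and *Ccl4* encode MIP-1α and MIP-1β, chemokines that microglia release early on activation. *Ccl3* was listed at 6.62, 11.2 and 13.99 cpm against 4.11, 6.71 and 11.4 cpm. Its lowest library was labelled Cnr1-/- and its highest Cnr1+/+, and the groups overlapped. *Ccl3* had a log2 fold change of -0.56 (SE 0.336, 95% interval -1.24 to 0.12, adjusted p = 0.954, limma), the lower of the 2 values below 0. This value depended on single libraries. The log2 fold change was -0.93 without replicate 3 labelled Cnr1-/- and -0.86 without replicate 1 labelled Cnr1+/+, both with a nominal p under 0.05 (limma, adjusted p = 0.990 and 0.973). Without replicate 1 labelled Cnr1-/- it was -0.20 and did not pass. The coefficient of variation of *Ccl3* was 35.1% and 50.1% in the groups, against 10.1% and 12.1% from counting alone.

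*Ccl4* was listed at 6.36, 4.49 and 4.94 cpm against 4.33, 5.60 and 8.35 cpm. Replicates 1 and 3 labelled Cnr1-/- were the lowest and the highest of all 6 libraries. *Ccl4* had a log2 fold change of 0.17 (95% interval -0.58 to 0.92, adjusted p = 0.986, limma). Although the genes lie 13228 bases apart, the ratio of *Ccl3* to *Ccl4* varied from 0.950 to 2.83, with 1.04, 2.49 and 2.83 in the libraries labelled Cnr1+/+ and 0.950, 1.20 and 1.37 in those labelled Cnr1-/-. The ratio was highest in replicates 2 and 3 labelled Cnr1+/+, and the groups overlapped through replicate 1 of that label. The Pearson r of *Ccl3* and *Ccl4* was 0.26 (exact permutation p = 0.597) and the Spearman rho 0.31 (exact permutation p = 0.564), and r was 0.09 without the 2 libraries farthest from the median of *Ccl3*.

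*Ccl9* encodes MIP-1γ, a ligand of CCR1 that mouse macrophages make without stimulation. It was the most abundant of the 10, at 35.9, 27.2 and 37.0 cpm against 38.4, 45.4 and 30.5 cpm. Replicates 1 and 2 labelled Cnr1-/- were above all libraries labelled Cnr1+/+, and replicate 3 lay among them. *Ccl9* had a log2 fold change of 0.18 (95% interval -0.19 to 0.56, adjusted p = 0.914, limma). Its neighbour *Ccl6* is another macrophage chemokine of the same family. It was listed at 53.2, 55.3 and 60.8 cpm against 70.9, 85.0 and 73.7 cpm, without overlap between the groups. That holds for 6.58% of all listed genes in this direction. The log2 fold change of *Ccl6* was 0.44 (SE 0.142, adjusted p = 0.610, limma). *Ccl9* and *Ccl6* had a Pearson r of 0.56 (exact permutation p = 0.253) and a Spearman rho of 0.54 (exact permutation p = 0.297), which fell to an r of -0.38 without the 2 libraries farthest from the median of *Ccl9*. Adjusted over the 4 pairs, the Pearson p were between 0.796 and 0.956 and the Spearman p between 0.752 and 0.803 (exact permutation tests).

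**Figure D2:**
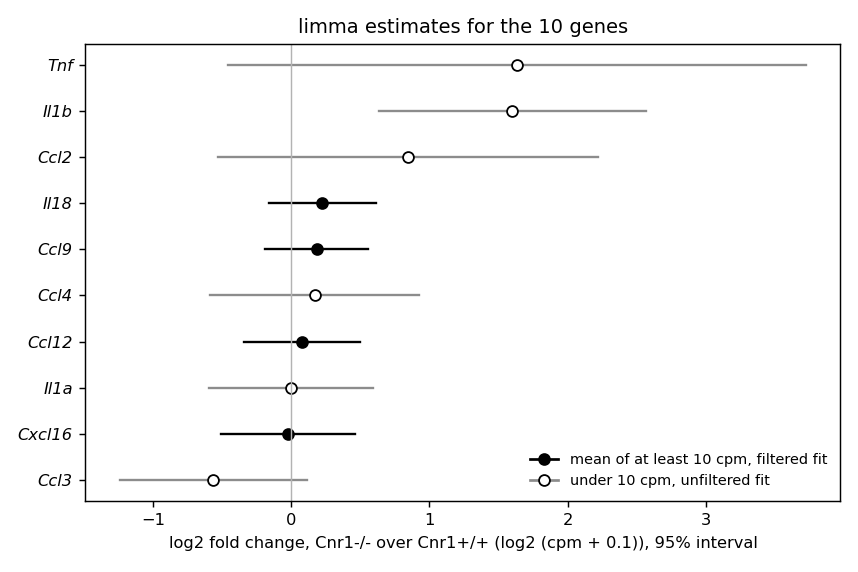
The log2 fold change of each of the 10 genes (Cnr1-/- over Cnr1+/+, on log2 (cpm + 0.1)) is plotted with its 95% interval from limma, with filled points for the 4 genes of the fit with the filter and open points for the 6 genes of the fit without it. Only the interval of *Il1b*, 0.63 to 2.57, lies wholly above 0.

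Of the 10 log2 fold changes, 8 were above 0 and 2 below, with a median of 0.18. Among all listed genes 58.1% were above 0 with a median of 0.07, and among the tested genes 68.4% with a median of 0.08. Intervals of the 4 genes with more than 10 cpm reached at most 0.61 in size, whereas those of *Tnf*, *Il1b* and *Ccl2* extended beyond 2 on the log2 scale. For each of the 4, the gene with the most similar course over the 6 libraries was named, by the root mean square difference of log2 values centred on their means. These were *Rap2a* for *Ccl9* (0.0412), *Ldlrad4* for *Ccl12* (0.0464), *Bud23* for *Cxcl16* (0.0796) and *Actn4* for *Il18* (0.0522).

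The pathway around these genes was examined with lists. Of 71 other interleukins, chemokines and growth-promoting cytokines 40 were listed and 9 tested, of which 3 were higher at a nominal p under 0.05 and 0 lower, against 6.02% of all tested genes in either direction, and 0 passed the adjusted threshold. Among the 3, *Tnfsf13b* (means 8.96 and 13.5 cpm) reached the filter only through the libraries labelled Cnr1-/-, so that the count of the 9 supports nothing. The median log2 fold change of the 9 was 0.12, against 0.08 for all tested genes. Besides *Ccl6* these were *Il16*, a chemoattractant for CD4+ cells, and *Tnfsf13b*, which encodes the B cell factor BAFF. *Il16* was listed at 74.8, 76.9 and 80.2 cpm against 87.3, 99.03 and 94.8 cpm (log2 fold change 0.28, adjusted p = 0.825, limma). *Tnfsf13b* was listed at 9.34, 11.97 and 5.57 cpm against 13.97, 13.1 and 13.5 cpm (log2 fold change 0.66, adjusted p = 0.809, limma). In both, every library labelled Cnr1-/- was above every library labelled Cnr1+/+, as for 6.58% of all listed genes. Both were picked by their nominal p in the same 6 libraries. The most abundant gene of the list, *Grn*, which encodes progranulin, was at 577 ± 51.6 and 624 ± 42.6 cpm (SD, n = 3).

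Without the filter, 4 of the 40 were higher and 1 lower at a nominal p under 0.05, against 5.17% of all genes in either direction. *Ccl24* and *Cxcl10* were added to the higher ones, *Ccl5* was the lower one, and *Il16* no longer passed. *Ccl24*, an eosinophil attractant, was listed at 3.11, 1.696 and 4.94 cpm against 4.44, 5.41 and 9.30 cpm, with overlap (log2 fold change 1.00, adjusted p = 0.911, limma). *Cxcl10*, a target of interferons, was listed at 1.17, 0.200 and 0.841 cpm against 2.598, 2.05 and 4.29 cpm (log2 fold change 2.05, adjusted p = 0.803, limma). *Ccl5*, a chemokine made mainly by T cells and stimulated macrophages, was listed at 3.24, 2.59 and 0.841 cpm against 0.217, 0.746 and 0 cpm (log2 fold change -2.77, adjusted p = 0.718, limma).

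Genes that make or release the active proteins were read next. Of the 22 genes of the inflammasome, of processing and of shedding, 12 were tested and 0 were higher or lower at a nominal p under 0.05, with a median log2 fold change of 0.07. At a share of 6.02% and a median of 0.08 over all tested genes, a count of 0 in a list of this size says nothing about the list. *Adam10* and *Adam17*, the proteases that shed CXCL16 and TNF, were the most abundant, with means of 91.4 ± 7.90 and 101 ± 10.7 cpm in the libraries labelled Cnr1+/+ and of 101 ± 12.7 and 90.9 ± 4.08 cpm in those labelled Cnr1-/- (SD, n = 3). Of 17 genes for RNA-binding proteins and nucleases that control cytokine mRNA, 16 were tested and 0 passed a nominal p under 0.05 (6.02% of all tested genes), with a median of 0.02. *Zfp36l2*, the most abundant of them, was at 198 ± 31.0 and 213 ± 34.8 cpm and *Zfp36l1* at 146 ± 28.3 and 148 ± 12.7 cpm (SD, n = 3).

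Of 17 receptors for the 10 cytokines and chemokines 10 were listed and 5 tested, with a median log2 fold change of -0.02 against 0.08 for all tested genes. At a nominal p under 0.05, 1 of the 10 was higher without the filter and 0 lower, against 5.17% of all genes. This was *Ccr1*, the receptor of CCL9 and CCL3, listed at 4.41, 10.97 and 7.89 cpm against 8.99, 12.8 and 15.4 cpm (log2 fold change 0.73, adjusted p = 0.892 without the filter, limma). With means of 7.76 and 12.4 cpm, it reached the filter only through the libraries labelled Cnr1-/-. Its groups overlapped, and *Ccr1* is also carried by neutrophils and monocytes of the blood. *Tnfrsf1b*, which encodes a TNF receptor, was at 88.5 ± 9.36 and 91.5 ± 7.53 cpm (SD, n = 3).

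Of 24 adaptors and kinases below the IL-1, IL-18 and TNF receptors 17 were tested, and 0 were higher or lower at a nominal p under 0.05 (6.02% of all tested genes), with a median log2 fold change of 0.06. The most abundant were *Tab2*, a partner of TAK1, at 164 ± 5.04 and 166 ± 19.5 cpm and the ubiquitin ligase *Peli1* at 86.6 ± 2.33 and 97.3 ± 4.89 cpm (SD, n = 3). Without the filter 1 of 24 was higher, against 3.68% of all genes, namely *Tab1*, an activator of the kinase TAK1, at 5.32, 4.19 and 2.84 cpm against 5.74, 8.21 and 7.75 cpm (adjusted p = 0.932, limma). Among 16 genes of NF-κB subunits, inhibitors and feedback genes, 10 were tested, 2 were higher and 0 lower (6.02% of all tested genes in either direction), with a median of 0.10. Without the filter 8 of the 16 were above 0 and 8 below, with a median of 0.02 against 0.07 for all listed genes. *Nfkbia*, the inhibitor that NF-κB itself induces and that glucocorticoids also induce, was listed at 124, 136 and 196 cpm against 246, 260 and 163 cpm (log2 fold change 0.55, adjusted p = 0.494, limma). Replicate 3 labelled Cnr1-/- lay among the libraries labelled Cnr1+/+, so that the groups overlapped. *Otulin* encodes a deubiquitinase that restrains TNF signalling. It was listed at 8.43, 13.6 and 13.9 cpm against 19.6, 21.0 and 23.1 cpm (log2 fold change 0.85, adjusted p = 0.409, limma). Its groups did not overlap, as for 6.58% of all listed genes in this direction. The subunit gene *Rela* was at 51.8 ± 8.57 and 59.9 ± 5.60 cpm (SD, n = 3).

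Isolation of microglia can itself switch on early response genes and cytokines, so 22 immediate early and dissociation-response genes were read beside the 10 genes. They summed to 429, 407 and 466 cpm in the libraries labelled Cnr1+/+ and to 434, 435 and 433 cpm in those labelled Cnr1-/-. Of the 22, 7 were tested and 0 were higher or lower at a nominal p under 0.05, against 6.02% of all tested genes. *Ier5* and *Klf6*, the most abundant, were at 106 ± 10.9 and 73.6 ± 4.10 cpm in the libraries labelled Cnr1+/+ and at 92.4 ± 3.33 and 75.9 ± 4.99 cpm in those labelled Cnr1-/- (SD, n = 3). Without the filter 1 of the 22, *Atf3*, passed, against 5.17% of all genes, and was lower at 6.36, 4.09 and 2.63 cpm against 2.49, 0.746 and 1.31 cpm (log2 fold change -1.53, adjusted p = 0.831, limma). The part of isolation in the values of the 10 genes was not tested.

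**Figure D3:**
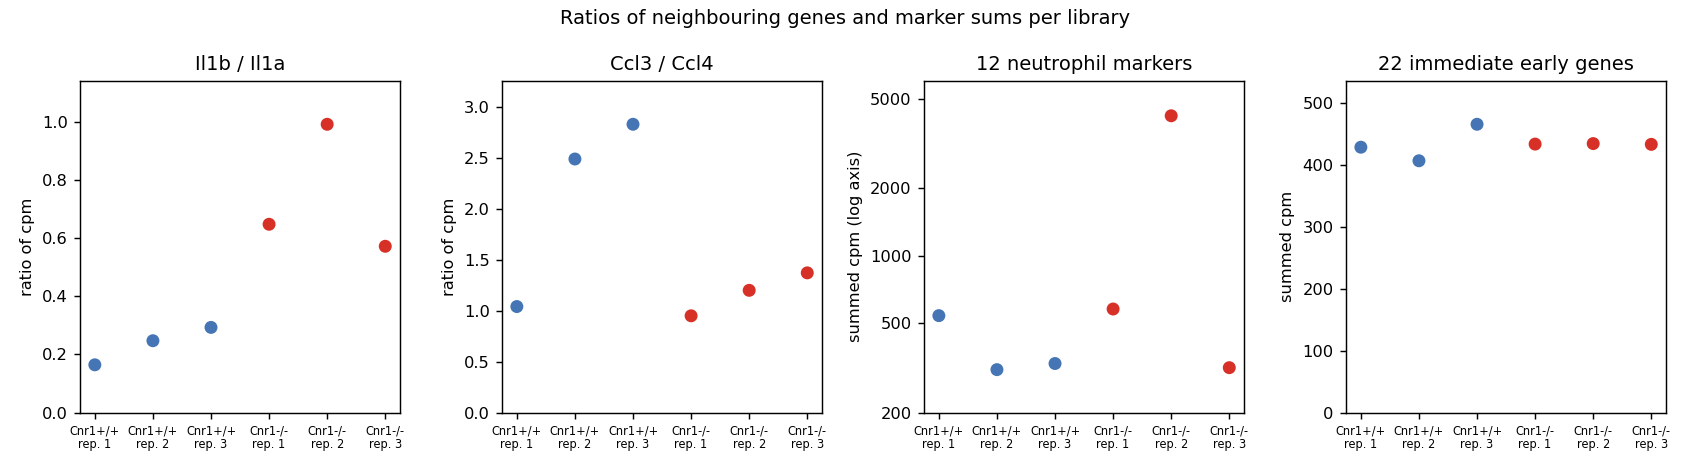
The panels plot, for each of the 6 libraries, the ratio of *Il1b* to *Il1a*, the ratio of *Ccl3* to *Ccl4*, the summed cpm of 12 neutrophil markers on a log axis and the summed cpm of 22 immediate early genes, with blue points for Cnr1+/+ and red points for Cnr1-/-. The ratio of *Il1b* to *Il1a* separates the labels (at most 0.293 against at least 0.571), and restates the *Il1b* values because *Il1a* hardly differed. The neutrophil sum sets replicate 2 labelled Cnr1-/- (4201 cpm) apart from the other 5 libraries.

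Markers of other cells gave these ranges beside the 10 genes. Border-associated macrophage markers (9 of 9 listed) had sums of 306 to 432 cpm in the libraries labelled Cnr1+/+ and to 347 to 374 cpm in those labelled Cnr1-/-, and neuron markers (9 of 9 listed) to 29.8 to 36.02 cpm and 31.1 to 36.5 cpm. Lymphocyte markers were listed for 3 of 11 genes, with sums of 5.29 to 9.99 cpm and 7.04 to 10.2 cpm. Monocyte markers (8 of 8 listed) had sums of 33.1 to 39.9 cpm and 32.9 to 116 cpm, the highest in replicate 2 labelled Cnr1-/-. Without the filter, 4 of the 8 were above 0 and 4 below on the log2 scale, with a median of 0.03. Of the border-associated macrophage markers, 3 were above 0 and 6 below on the log2 scale without the filter (median -0.24), and 2 of the 9, *Pf4* and *Cbr2*, were lower at a nominal p under 0.05 (5.17% of all genes). Endothelial markers (7 of 7 listed) had sums of 25.5 to 28.8 cpm and 16.5 to 26.4 cpm. Without the filter 6 of the 7 were below 0 (median -0.41), and 0 were higher or lower at a nominal p under 0.05. Among all listed genes 58.1% were above 0, with a median of 0.07. Astrocyte markers (7 of 7 listed) had sums of 302 to 478 cpm and 391 to 560 cpm, and oligodendrocyte markers (7 of 7 listed) of 599 to 856 cpm and 423 to 805 cpm. The part of these cells in the values of the 10 genes was not tested.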

How the data were processed

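RNA of CD11b+ cells from 6 mice was analysed, 1 library per mouse, grouped by the sample labels; 0 sample columns were left unused. The authors trimmed single-end 3′ reads, aligned them to mm10 with STAR, quantified genes by expectation-maximisation in Partek Flow and deposited TMM-scaled CPM. Under 95% of values were whole multiples of 1 read (tolerance 0.02 reads), so no count test was used; the values of the 10 genes were whole. Groups were compared by limma 3.58.1 (R 4.3.3; lmFit, eBayes with trend, genotype only) on log2 (cpm + 0.1), for the genes whose mean reached 10 cpm, and without this filter for the 6 genes under it. The steps of the fit with the filter were tested on simulated data. Genes under 10 cpm were not simulated, so the fit without the filter, which gave *Il1b*, was not covered. Intervals of single libraries are exact Poisson.

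The 10 genes and all lists were chosen with earlier results of these data known. Named are the 10 genes, *Cnr1*, their overlapping or adjacent neighbours, the most similar gene of each tested one, and of each pathway list the genes with a nominal p under 0.05 and the 2 most abundant; cell marker lists are given as sums, with *Pf4* and *Cbr2* named by the same rule, and 1 gene of these lists is not reported here. P-values measure the spread between mice of 1 isolation scheme. Alternatives were no filter, a minimum of 20 cpm, pseudocounts of 1 and 0.0001, quantile normalisation, centring, rescaling without mitochondrial genes, no trend, leaving out each library and a block for the replicate number; those combined with no filter for the count of the 10 genes were chosen after seeing the data. Same-numbered libraries did not deviate together (correlations of -0.056, -0.032 and -0.031), so the numbers were not taken as pairs.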

Additional observations from a re-analysis of the deposited data

How the results depend on the processing

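With nominal p under 0.05, 401 genes passed in limma with the filter, 993 without it, 263 with a minimum of 20 cpm and 252 to 600 with each library left out (252 without replicate 2 labelled Cnr1-/-). With the adjusted threshold, 6 genes passed, 14 without the filter, 0 with centring, quantile normalisation, rescaling or no trend, and 1 to 30 with each library left out (10, 1 and 16 without replicates 1, 2 and 3 labelled Cnr1+/+, 30 without replicate 3 labelled Cnr1-/-). Of the 10 genes, 0 passed the nominal p with the filter and 1, *Il1b*, without it; combined with centring, quantile normalisation, rescaling or the replicate block, no filter gave 1 each time, and with each library left out 1 to 2. With the replicate block and the filter, 421 genes passed the nominal p and 8 the adjusted threshold; since the numbers do not pair the libraries, this is no weaker or stronger effect.

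Of 137 log2 fold changes of the 10 genes under single alternatives, 123 kept sign and side of the nominal threshold, 10 changed sign and 4 passed the threshold. *Il1a* became -0.074 with centring, -0.066 with quantile normalisation, -0.10 with rescaling, -0.03 without replicate 2 labelled Cnr1+/+ and -0.11 without replicate 2 labelled Cnr1-/-. *Ccl12* became -0.021 with rescaling, and -0.065 without replicate 3 labelled Cnr1-/-, which also gave -0.079 for *Ccl4* and 0.12 for *Cxcl16*. *Cxcl16* became 0.22 without replicate 3 labelled Cnr1+/+. With each library left out in turn, *Il1a* ranged from -0.11 to 0.10, *Ccl4* from -0.079 to 0.39, *Ccl12* from -0.065 to 0.19 and *Cxcl16* from -0.20 to 0.22. The 4 that passed were *Tnf* without replicate 2 labelled Cnr1+/+ (2.65), *Ccl2* without trend (0.84) and *Ccl3* without replicate 1 labelled Cnr1+/+ (-0.86) or replicate 3 labelled Cnr1-/- (-0.93). The cause was not tested. *Tnf* and *Ccl2* rest on at most 31 reads per library. The coefficient of variation of *Ccl2* (25.4% and 28.7% in the groups) was near that of counting (30.6% and 21.8%), whereas that of *Tnf* was above it. The adjusted threshold was not passed by *Il1b* under any of the 14 fits without the filter.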
